A study of Mus musculus with 6 samples.

Results

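The genes described here are the receptors and the main ligand of vascular endothelial growth factor (VEGF) together with markers of endothelium, the cell layer that lines blood vessels, in RNA from mouse oocytes. The 10 members are the receptors Flt1, Kdr and Flt4, the co-receptors Nrp1 and Nrp2, the ligand Vegfa, the junction and surface genes Pecam1, Cdh5 and Esam, and the angiopoietin receptor Tek. They are 10 of the 54532 genes in the count table and were chosen by gene name with earlier results of the same comparison of AMH and control libraries known. Their differences between the groups are therefore given as a description.

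The libraries called AMH 1, AMH 2 and AMH 3, come from oocytes of C57BL/6J mice injected daily into the peritoneal cavity with 300 ng of AMH from day 21 of age. AMH (anti-Müllerian hormone) is a granulosa cell hormone, and the protein injected was recombinant mouse AMH made in E. coli. The comparison libraries, controls 1, 2 and 3, come from oocytes of C57BL/6J mice labelled control, and all 6 libraries carry an age of 6 to 7 weeks. The labels do not state whether controls were injected, how many animals or oocytes entered a library, or whether the cells around the oocytes were stripped off, so the spread that the p-values measure is that of these libraries and may be technical only.

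VEGF-A is a secreted protein that drives the growth and permeability of blood vessels by binding FLT1 and KDR, tyrosine kinase receptors of endothelial cells, while FLT4 is the receptor for VEGF-C and VEGF-D on lymphatic endothelium. KDR carries most of the growth signal, FLT1 binds VEGF-A tightly and its soluble form traps it, and neuropilins add to the binding and also serve as receptors of class 3 semaphorins. In the ovary the vessels stay outside the basement membrane of the follicle, so granulosa cells and the oocyte lie in tissue without vessels, and granulosa and cumulus cells are a source of VEGF-A.

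Of the members, 7 had a promoter entry in RefSeq (GRCm38.p6), which covers 250 bases before to 50 after an annotated start. The 4 receptor promoters shown were picked after the values were seen. On average Flt1, Kdr and Nrp1 were lower and Nrp2 was higher in AMH libraries. None of these 4 passed the test given below, and the groups overlapped for Nrp2. Capitals mark the ETS core, GGAA on either strand, and the cAMP response element, TGACGTCA. Flt1 lies at chr5:147725962-147726261 (minus strand), Kdr at chr5:75978406-75978705 (minus strand), Nrp1 at chr8:128358823-128359122 (plus strand) and Nrp2 at chr1:62703067-62703366 (plus strand).
Flt1: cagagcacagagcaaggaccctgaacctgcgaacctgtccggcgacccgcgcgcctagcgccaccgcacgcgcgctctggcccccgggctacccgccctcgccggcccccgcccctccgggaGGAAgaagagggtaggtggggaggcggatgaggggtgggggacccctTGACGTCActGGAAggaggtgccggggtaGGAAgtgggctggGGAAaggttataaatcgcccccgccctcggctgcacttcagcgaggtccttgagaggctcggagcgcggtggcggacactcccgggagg
Kdr: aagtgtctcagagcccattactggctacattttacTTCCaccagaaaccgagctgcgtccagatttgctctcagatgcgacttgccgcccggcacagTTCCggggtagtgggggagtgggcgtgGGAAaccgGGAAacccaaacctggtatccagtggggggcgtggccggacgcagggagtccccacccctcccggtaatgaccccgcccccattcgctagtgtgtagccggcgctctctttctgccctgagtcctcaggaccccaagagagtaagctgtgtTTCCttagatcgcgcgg
Nrp1: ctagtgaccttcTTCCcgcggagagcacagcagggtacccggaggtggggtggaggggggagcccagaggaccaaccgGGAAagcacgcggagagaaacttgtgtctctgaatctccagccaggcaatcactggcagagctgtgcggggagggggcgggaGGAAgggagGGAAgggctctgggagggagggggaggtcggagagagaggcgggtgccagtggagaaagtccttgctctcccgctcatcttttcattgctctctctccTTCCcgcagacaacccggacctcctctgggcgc
Nrp2: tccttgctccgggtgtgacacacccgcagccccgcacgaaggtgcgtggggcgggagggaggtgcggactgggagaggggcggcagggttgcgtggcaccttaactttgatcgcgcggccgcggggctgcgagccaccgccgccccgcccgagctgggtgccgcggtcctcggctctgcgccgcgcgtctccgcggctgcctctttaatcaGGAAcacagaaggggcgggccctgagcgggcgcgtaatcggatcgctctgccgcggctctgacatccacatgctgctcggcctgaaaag

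The ETS core, bound by factors such as ERG and FLI1 that are known for activating endothelial genes, occurred 4 times in the Flt1 window, 5 times in those of Kdr and Nrp1 and once in that of Nrp2. It is present in 96% of 32851 RefSeq promoters of this length, with a median of 3 sites, so these counts set no receptor apart. The Flt1 window held 1 cAMP response element, found in 1.79% of promoters, with an ETS core 2 bases after it, and 1 TATA box (TATAAA), found in 13.6%. No cAMP response element and no TATA box occurred in the other windows printed. The hypoxia response core ACGTG, present in 19.6% of promoters, was not found in the windows of the 7 members, Vegfa included. Sequence outside these windows was not searched. The E-box, CANNTG, occurred once each in the Kdr and Nrp2 windows and not in those of Flt1 and Nrp1, against 72.3% of promoters with at least 1. CG dinucleotides numbered 29 for Flt1, 19 for Kdr, 14 for Nrp1, 37 for Nrp2 and 3 for Tek, against a median of 7. Whether oocytes use these starts was not measured.

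Depth was 66392859 to 72109080 counts per library, and values below are CPM (counts per 1000000 counts) on library sizes scaled by edgeR's TMM method unless FPKM (fragments per 1000000 and per kilobase of gene) is named. Gene positions are those of the deposited table, on GRCm38. Summed CPM of 18 oocyte markers was 20814 to 35478 in AMH libraries and 36228 to 45539 in controls, and that of 19 cumulus and granulosa markers was 4022 to 5673 in AMH libraries and 392 to 4027 in controls. AMH 3 and control 3 lay next to each other in both sums, and over all genes they were the closest pair of libraries, with a chi-square per degree of freedom of 55.9 against 65.96 for the closest pair within a group. All 18 oocyte markers and 18 of the 19 cumulus and granulosa markers reached 1 FPKM in at least 1 library.

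Most of the listed endothelial genes had low levels in these libraries. Of 28 genes on the lists of endothelial surface, junction and transcription factor genes, 22 did not reach 1 FPKM in any library. Low levels were common over the whole table too, where 11894 of 54532 genes were above 1 FPKM in at least 3 libraries. That limit is stricter than reaching 1 FPKM in any library, and the count is not read as particular to endothelial genes. Emcn (endomucin, a surface sialomucin of veins and capillaries) and Etv2 (an early endothelial transcription factor) had 0 counts in all 6 libraries, and Cldn5 (the tight-junction claudin of endothelium) and Robo4 had at most 0.0455 CPM. The 6 that reached 1 FPKM were Pecam1, Selp (P-selectin), Cav1 (the caveola protein), Erg, Hhex and Sox17. Pecam1 (PECAM-1 or CD31, a junction protein of endothelium, platelets and leukocytes) had the highest mean FPKM of the members over the 6 libraries, while Cdh5 (VE-cadherin, the adherens junction protein that defines endothelium) was close to 0. In FPKM, Pecam1 stood at 22.4, 33.6 and 55.7 times Cdh5 in AMH 1, 2 and 3, against 297, 477 and 61.6 times in controls 1, 2 and 3. Cav1 was also abundant, at 50.3, 45.5 and 16.1 FPKM in AMH 1, 2 and 3 and 9.55, 1.49 and 15.0 FPKM in controls 1, 2 and 3.

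**Figure D1:**
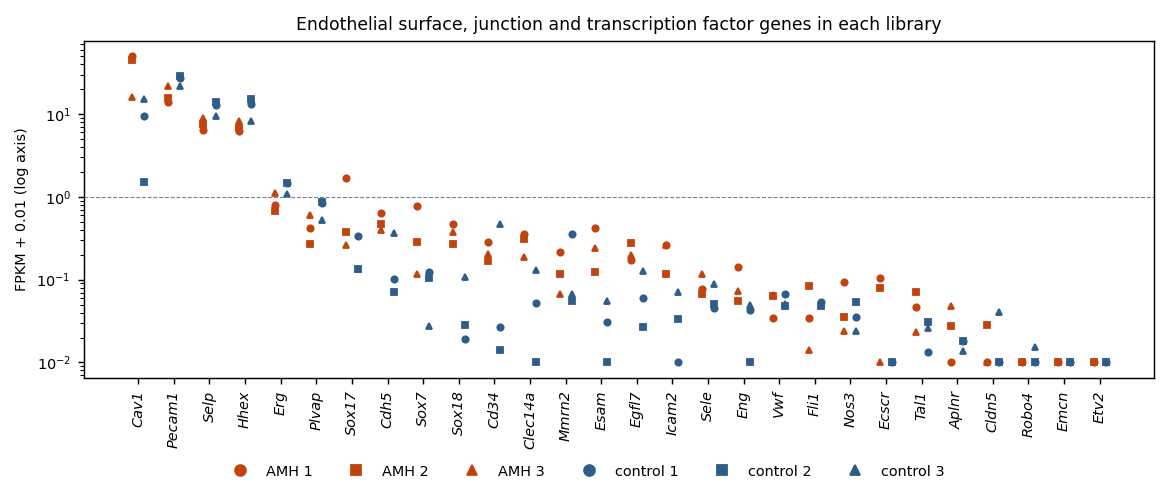
FPKM (plus 0.01, log axis) of 28 endothelial genes in each AMH library (left of each pair, red) and control library (right, blue), with the marker shape giving the library number and the dashed line at 1 FPKM. Cav1, Pecam1, Selp and Hhex stand above 1 FPKM in every library, and 22 of the genes stay below it in all 6.

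Over all libraries the mean FPKM was 21.6 for Pecam1, 14.6 for Vegfa, 8.63 for Nrp1, 3.32 for Tek, 1.49 for Flt1, 1.34 for Kdr, 0.330 for Cdh5, 0.255 for Nrp2, 0.136 for Esam and 0.00908 for Flt4. Neighbours in this order were not always separated. Flt1 and Kdr overlapped in AMH libraries, at 0.921 to 1.06 FPKM for Flt1 and 0.857 to 1.198 FPKM for Kdr, but not in controls, at 1.74 to 2.14 FPKM for Flt1 and 1.53 to 1.71 FPKM for Kdr. Vegfa ranged from 7.19 to 28.4 FPKM in AMH libraries and from 1.37 to 24.6 FPKM in controls, and it was above Pecam1 in AMH 1, AMH 2 and control 3 and below it in the other libraries. Cdh5 and Nrp2 overlapped in both groups.

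Between AMH and control oocytes, 5 members were lower on average in AMH libraries (Flt1, Kdr, Nrp1, Pecam1 and Tek) and 4 were higher (Vegfa, Nrp2, Cdh5 and Esam), while Flt4 was too low to be tested. No member passed edgeR's quasi-likelihood test with Benjamini-Hochberg adjustment over all genes: 0 of 9 tested members had an adjusted p under 0.05, as did 0 of 18868 genes (0%), where the smallest was 0.116. Without adjustment 7080 genes had an edgeR p under 0.05, 20.2% of those tested being higher and 17.3% lower in AMH libraries, among them 4 members lower (Flt1, Kdr, Nrp1 and Pecam1) and 1 higher (Esam). DESeq2 called 4535 genes, 18.0% of those it adjusted being higher and 8.64% lower, and limma-voom and limma on FPKM called 0. Every AMH library lay above every control for 26.9% of tested genes and below every control for 23.3%, and among 9 members this held for 2 (Cdh5 and Esam) and 4 (Flt1, Kdr, Nrp1 and Pecam1). Because the members were proposed with these values in view, nothing is read from those counts.

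**Figure D2:**
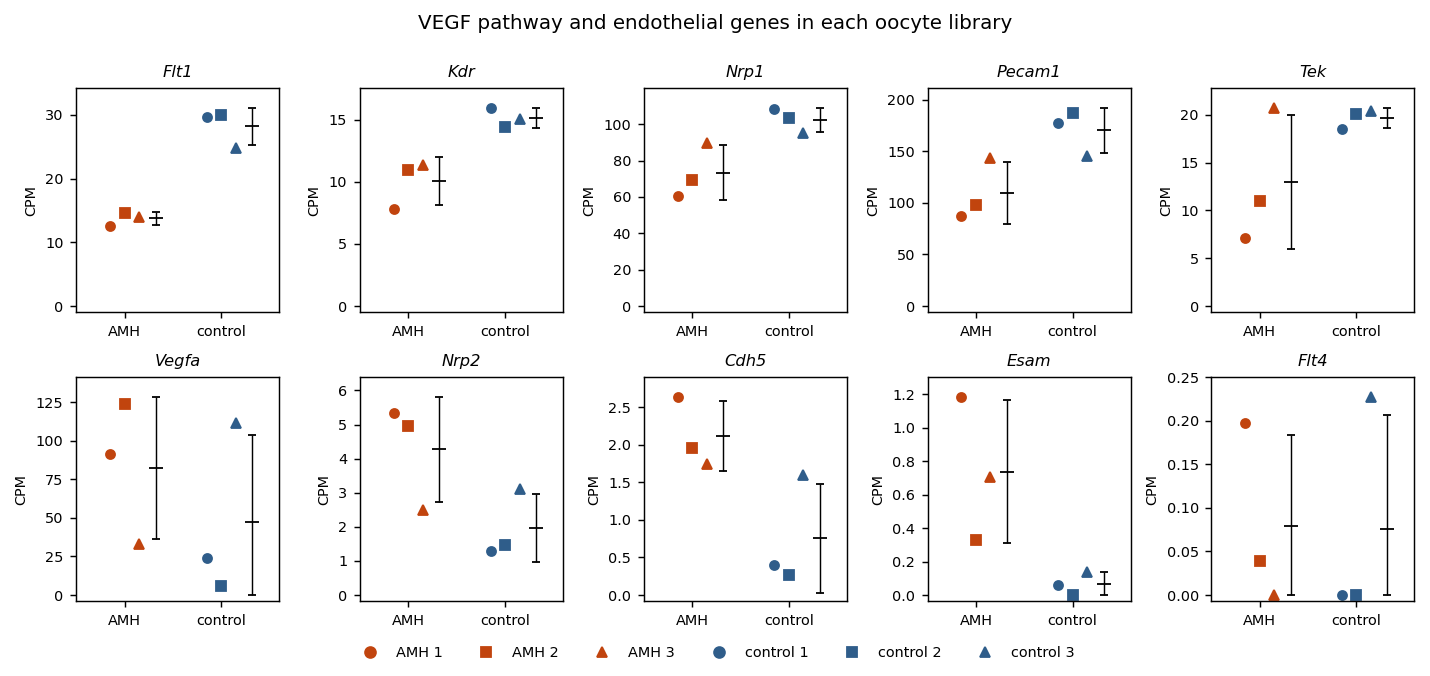
CPM of the 10 members in AMH libraries (red, left) and control libraries (blue, right), with the marker shape giving the library number and the black bar the mean and SD of 3 libraries, cut off at 0. Flt1, Kdr, Nrp1 and Pecam1 lie below every control in each AMH library, while Vegfa, Nrp2 and Flt4 overlap.

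Flt1, the high-affinity VEGF-A receptor (ENSMUSG00000029648, chromosome 5, 147561604 to 147726011), had 12.6, 14.6 and 14.0 CPM in AMH 1, 2 and 3 and 29.7, 30.03 and 24.8 CPM in controls 1, 2 and 3. The 3 AMH libraries were close together and all were well below the lowest control. The means were 13.7 ± 1.04 CPM in AMH and 28.2 ± 2.90 CPM in control libraries (SD, n = 3 each), a log2 fold change of -1.04 with a standard error of 0.20 (edgeR adjusted p = 0.116). Flt1 was past the threshold in DESeq2 (adjusted p = 0.000253) and in edgeR without AMH 3 (adjusted p = 0.0472) or without control 3 (adjusted p = 0.0173). With any other library left out, its edgeR adjusted p was 0.166 to 0.315. For each member, edgeR passes came only in those fits. In them 1607 of 19638 genes tested passed without AMH 3 and 7513 of 19770 without control 3. Flt1 was 1 of 2 members that DESeq2 called.

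Kdr, the main signalling receptor of VEGF-A (ENSMUSG00000062960, chromosome 5, 75932827 to 75978458), had 7.82, 10.99 and 11.3 CPM in AMH 1, 2 and 3 and 16.0, 14.4 and 15.1 CPM in controls 1, 2 and 3. Every AMH library was below every control, and AMH 1 was the lowest. The means were 10.05 ± 1.93 CPM in AMH and 15.1 ± 0.782 CPM in control libraries (SD, n = 3 each), a log2 fold change of -0.59 with a standard error of 0.24 (edgeR adjusted p = 0.126). The FPKM ratio of Flt1 to Kdr was 1.08, 0.888 and 0.828 in AMH 1, 2 and 3 and 1.24, 1.39 and 1.102 in controls 1, 2 and 3, so it was lower in each AMH library than in any control.

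Flt4, the lymphatic VEGF receptor (ENSMUSG00000020357, chromosome 11, 49609263 to 49652739), had 16, 3 and 0 counts in AMH 1, 2 and 3 and 0, 0 and 15 counts in controls 1, 2 and 3. The libraries at 0 allow up to 0.0458 CPM in AMH 3, 0.0465 CPM in control 1 and 0.0468 CPM in control 2, by a limit of 3 counts that covers counting error only. Flt4 did not pass the filter on low counts and no direction could be read.

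Nrp1, a co-receptor of VEGF-A and receptor of semaphorin 3A (ENSMUSG00000025810, chromosome 8, 128358604 to 128503363), was the most abundant of the receptors and co-receptors per length. It had 60.7, 69.4 and 89.96 CPM in AMH 1, 2 and 3 and 108, 104 and 95.0 CPM in controls 1, 2 and 3. All AMH libraries were below all controls, but AMH 3 and control 3 differed by little. The means were 73.4 ± 15.0 CPM in AMH and 102 ± 6.72 CPM in control libraries (SD, n = 3 each), a log2 fold change of -0.48 with a standard error of 0.19 (edgeR adjusted p = 0.124), and without AMH 3 the change was -0.68 (edgeR adjusted p = 0.0496).

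Nrp2, the co-receptor that also serves VEGF-C and semaphorin 3F (ENSMUSG00000025969, chromosome 1, 62703285 to 62818695), had the opposite direction at a much lower level. It had 5.35, 4.96 and 2.50 CPM in AMH 1, 2 and 3 and 1.30, 1.47 and 3.11 CPM in controls 1, 2 and 3. AMH 1 and 2 were the highest, and AMH 3 lay below control 3, so the groups overlapped. The log2 fold change was 1.12 with a standard error of 0.47 (edgeR adjusted p = 0.133), and 1.62 without control 3 (edgeR adjusted p = 0.0298). The FPKM ratio of Nrp1 to Nrp2 was 13.7, 16.9 and 43.5 in AMH 1, 2 and 3 and 101, 85.6 and 37.0 in controls 1, 2 and 3.

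Pecam1 (ENSMUSG00000020717, chromosome 11, 106654217 to 106750628) had 87.5, 97.7 and 143.5 CPM in AMH 1, 2 and 3 and 177, 187 and 145.4 CPM in controls 1, 2 and 3. AMH 3 was just below control 3, so the groups were separated by a narrow gap. The means were 109.6 ± 29.8 CPM in AMH and 170.0 ± 21.9 CPM in control libraries (SD, n = 3 each), a log2 fold change of -0.63 with a standard error of 0.23 (edgeR adjusted p = 0.118). Without AMH 3 the change was -0.91 (edgeR adjusted p = 0.0427).

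Tek, the TIE2 receptor of angiopoietins (ENSMUSG00000006386, chromosome 4, 94739289 to 94874976), had 7.15, 11.004 and 20.7 CPM in AMH 1, 2 and 3 and 18.5, 20.04 and 20.4 CPM in controls 1, 2 and 3. AMH 1 and 2 were below the controls and AMH 3 was the highest of all 6. The log2 fold change was -0.60 with a standard error of 0.39 (edgeR adjusted p = 0.259), and it was -1.14 without AMH 3 (edgeR adjusted p = 0.0621) and -0.31 without AMH 1 (edgeR adjusted p = 0.537). Its relative Tie1, an orphan receptor that modulates TIE2, ran alongside with 9.38, 11.96 and 20.4 CPM in AMH 1, 2 and 3 and 19.6, 24.2 and 22.3 CPM in controls 1, 2 and 3.

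The oocyte markers were also lower in AMH libraries: 18 of 18 were negative on the log2 fold scale, at a median of -0.73, and 15 lay below every control in each AMH library. The median compares with -0.01 over all tested genes, of which 23.3% lay below every control in each AMH library. In bulk RNA, fewer cells of a type and less RNA per cell cannot be told apart. Set against the summed oocyte markers of its own library, Pecam1 had 41.0, 46.9 and 40.4 CPM per 10000 oocyte marker CPM in AMH 1, 2 and 3 and 41.8, 41.1 and 40.1 in controls 1, 2 and 3, a near-constant ratio apart from AMH 2. Nrp1 had 28.4, 33.4 and 25.4 in AMH 1, 2 and 3 and 25.5, 22.8 and 26.2 in controls 1, 2 and 3 on the same scale. Tek had 3.35, 5.29 and 5.84 in AMH 1, 2 and 3 and 4.35, 4.40 and 5.64 in controls 1, 2 and 3, and the groups overlapped.

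Flt1 departed from that ratio in AMH 3. Flt1 had 5.89, 7.02 and 3.95 CPM per 10000 oocyte marker CPM in AMH 1, 2 and 3 and 6.99, 6.60 and 6.86 in controls 1, 2 and 3. The controls were within a narrow band, AMH 2 was just above it, AMH 1 was below it and AMH 3 was the lowest. Kdr had 3.66, 5.28 and 3.19 in AMH 1, 2 and 3 and 3.76, 3.16 and 4.16 in controls 1, 2 and 3, so AMH 2 was the highest and AMH 1 and 3 lay within the control range. Directions of the lower members depended on this choice of scale: with libraries scaled to the oocyte markers, 8 of 9 members had a positive log2 fold change and only Flt1 a negative one (-0.28), against 4 positive and 5 negative with TMM, while the median of all tested genes moved to 0.74. Gdf9 and H1foo had the largest parts in the oocyte marker sum, with means of 9074 and 7533 CPM over the 6 libraries. Single oocyte markers differed from that sum too. With TMM the 18 markers ran from -1.35 (Figla) to -0.46 (Oosp1) on the log2 fold scale, and Flt1 at -1.04 lay within that range.

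**Figure D3:**
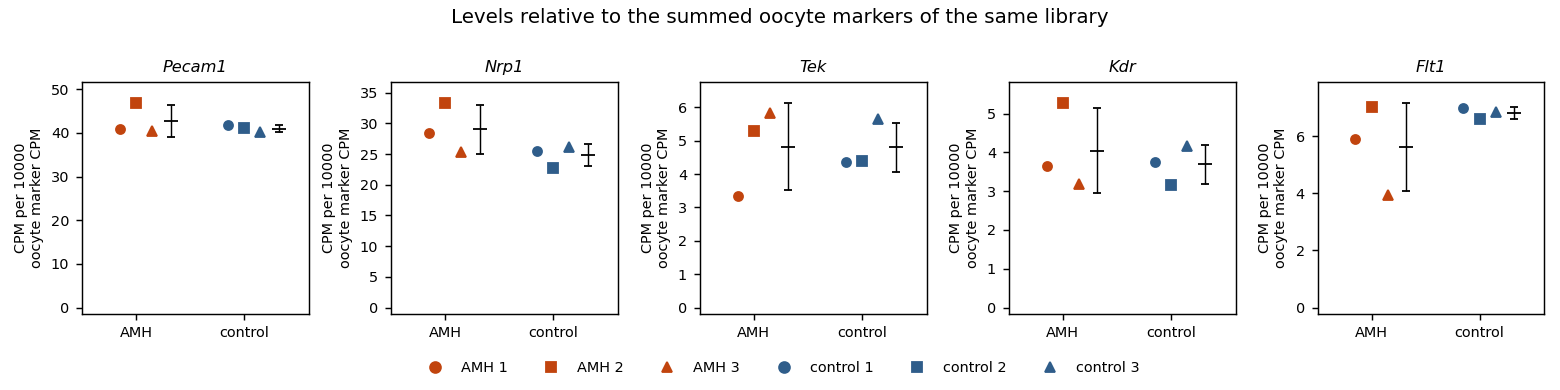
CPM of 5 members per 10000 summed CPM of 18 oocyte markers in the same library, for AMH libraries (red, left) and control libraries (blue, right), with the mean and SD of 3 libraries as black bars. Pecam1 stays between 40.1 and 46.9, while Flt1 runs from 3.95 in AMH 3 to 7.02 in AMH 2.

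**Figure D4:**
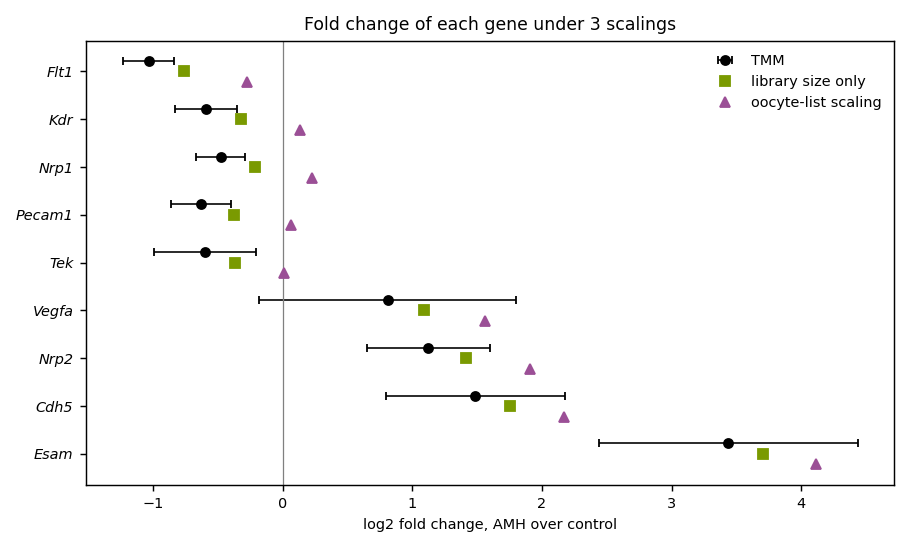
Log2 fold change, AMH over control, of the 9 tested members with TMM scaling (circles, bars are standard errors), with library size only (squares) and with scaling to the oocyte markers (triangles). Vegfa, Nrp2, Cdh5 and Esam are positive in each of the 3 scalings, Flt1 is negative in each, and Kdr, Nrp1, Pecam1 and Tek are positive only with the oocyte scaling.

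Vegfa, the ligand (ENSMUSG00000023951, chromosome 17, 46016993 to 46032369), had a wide spread between libraries of the same group. It had 91.1, 123.4 and 32.8 CPM in AMH 1, 2 and 3 and 23.7, 6.11 and 111 CPM in controls 1, 2 and 3. Control 3 stood with AMH 1 and 2, and AMH 3 with control 1, so the groups overlapped widely. The means were 82.4 ± 45.9 CPM in AMH and 47.1 ± 56.5 CPM in control libraries (SD, n = 3 each), a log2 fold change of 0.81 with a standard error of 0.99 (edgeR adjusted p = 0.528). Without control 3 the change was 2.46 (edgeR adjusted p = 0.0448), and it was 0.27 without control 2, 0.38 without AMH 2 and 0.48 without control 1, so single libraries decided its size.

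Some cumulus transcripts had the same 3 highest libraries as Vegfa, and other granulosa genes did not. Tnfaip6, a matrix protein of the expanding cumulus, had 148, 153 and 43.5 CPM in AMH 1, 2 and 3 and 24.0, 8.06 and 164 CPM in controls 1, 2 and 3. Ptgs2, the prostaglandin synthase of the same process, had 71.5, 131 and 22.7 CPM in AMH 1, 2 and 3 and 18.8, 5.16 and 63.3 CPM in controls 1, 2 and 3. For both genes, which were named after their values were seen, AMH 1, AMH 2 and control 3 were the 3 highest libraries. The same 3 were highest for genes on other lists, so this order was not particular to cumulus transcripts. Cd52, a leukocyte marker, had 31.0, 58.1 and 17.6 CPM in AMH 1, 2 and 3 and 4.96, 3.82 and 40.3 CPM in controls 1, 2 and 3. Krt8, an oviduct epithelial marker, had 145, 134 and 59.6 CPM in AMH 1, 2 and 3 and 28.6, 11.3 and 80.0 CPM in controls 1, 2 and 3. Inha, the inhibin alpha subunit, was instead highest in AMH 3, with 782, 739 and 1227 CPM in AMH 1, 2 and 3 and 119.6, 73.6 and 915 CPM in controls 1, 2 and 3. Of the cumulus and granulosa list, Inhba and Cyp19a1 had the smallest p. Inhba had 199, 163 and 148 CPM in AMH 1, 2 and 3 and 25.2, 11.3 and 82.9 CPM in controls 1, 2 and 3, higher in every AMH library. Cyp19a1, the aromatase, had 27.7, 35.1 and 47.1 CPM in AMH 1, 2 and 3 and 59.3, 59.4 and 53.1 CPM in controls 1, 2 and 3, lower in every AMH library. Over the whole list of 19 cumulus and granulosa markers, 16 had a positive log2 fold change, with a median of 1.31. In each AMH library 7 lay above every control and 1 below, against 26.9% and 23.3% of all tested genes. The summed CPM was 5673, 5419 and 4022 in AMH 1, 2 and 3 and 1346, 392 and 4027 in controls 1, 2 and 3. None of the 19 was at 0 in all libraries. The part of these cells in the Vegfa values was not tested.

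**Figure D5:**
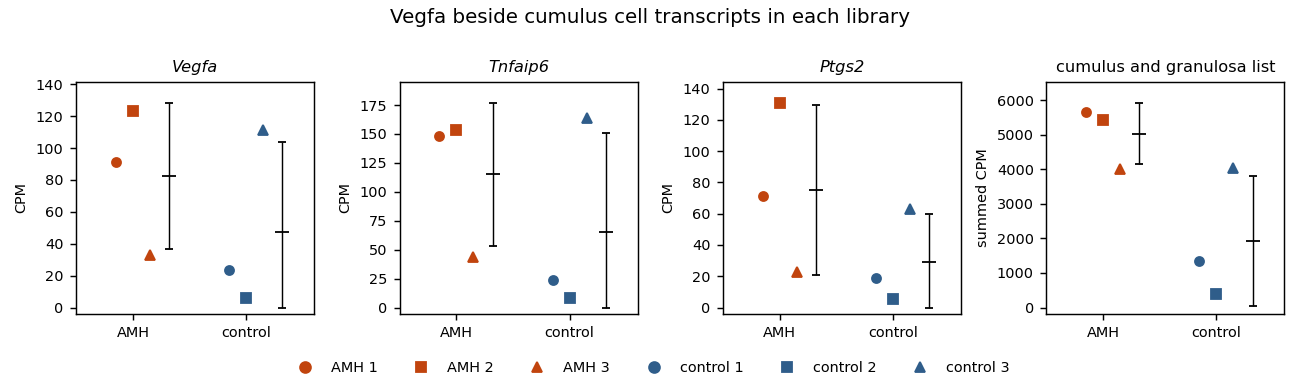
CPM of Vegfa, Tnfaip6 and Ptgs2 and summed CPM of 19 cumulus and granulosa markers in AMH libraries (red, left) and control libraries (blue, right), with the mean and SD of 3 libraries as black bars cut off at 0. In each panel control 2 is the lowest library and control 3 lies among or near the AMH libraries.

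Of the other VEGF ligands, Vegfb, which binds FLT1, had 12.4, 11.2 and 9.28 CPM in AMH 1, 2 and 3 and 2.25, 0.421 and 6.45 CPM in controls 1, 2 and 3, with no overlap (log2 fold change 1.85, edgeR adjusted p = 0.149). Vegfc, a ligand of FLT4, had 7.14, 4.19 and 2.30 CPM in AMH 1, 2 and 3 and 0.853, 0.343 and 2.53 CPM in controls 1, 2 and 3, so AMH 3 and control 3 were alike. Placental growth factor (Pgf), the other FLT1 ligand, was at most 0.123 CPM and was not tested. Of the 5 ligands 4 were tested, 4 had a positive log2 fold change, and 0 passed the test.

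Cdh5 (ENSMUSG00000031871, chromosome 8, 104101625 to 104144511) had 2.64, 1.96 and 1.74 CPM in AMH 1, 2 and 3 and 0.403, 0.265 and 1.59 CPM in controls 1, 2 and 3. AMH libraries were above controls, though control 3 came close to AMH 3. The means were 2.11 ± 0.467 CPM in AMH and 0.754 ± 0.730 CPM in control libraries (SD, n = 3 each), a log2 fold change of 1.48 with a standard error of 0.69 (edgeR adjusted p = 0.154). Without control 3 it was 2.65 (edgeR adjusted p = 0.0160).

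Esam, an endothelial and platelet adhesion molecule (ENSMUSG00000001946, chromosome 9, 37528078 to 37538319), had 96, 25 and 46 counts in AMH 1, 2 and 3 and 4, 0 and 9 counts in controls 1, 2 and 3, or 1.18, 0.327 and 0.702 CPM in AMH 1, 2 and 3 and 0.0620, 0 and 0.137 CPM in controls 1, 2 and 3. The count of 0 in control 2 allows up to 0.0468 CPM. The lowest AMH library was above the highest control, at a depth of few reads. The means differed 11.1-fold, and the log2 fold change was 3.44 with a standard error of 1.00 (edgeR adjusted p = 0.116). Esam was the other member called by DESeq2 (adjusted p = 0.00989), and without control 3 edgeR gave 4.48 (adjusted p = 0.0278).

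Other endothelial genes ran both ways. Of 20 endothelial junction and surface genes, 14 were tested and 0 passed the test. Of those tested 9 were positive and 5 negative on the log2 fold scale, at a median of 1.02 against -0.01 over all tested genes. In each AMH library 7 lay above every control and 2, Pecam1 and Selp, below, against 26.9% and 23.3% of all tested genes. The other negative ones were Plvap (-0.80), Mmrn2 (-0.30) and Vwf (-0.06), all low and overlapping between the groups. Icam2, a ligand of leukocyte integrins, had 0.481, 0.209 and 0.519 CPM in AMH 1, 2 and 3 and 0, 0.0468 and 0.121 CPM in controls 1, 2 and 3. Selp, abundant like Pecam1, had 28.3, 34.2 and 42.7 CPM in AMH 1, 2 and 3 and 58.0, 63.6 and 43.8 CPM in controls 1, 2 and 3, with AMH 3 just below control 3.

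Among 8 endothelial transcription factors 5 were tested and 0 passed, 3 with a positive and 2 with a negative log2 fold change. Sox18, an endothelial SOX factor, had 0.764, 0.432 and 0.626 CPM in AMH 1, 2 and 3 and 0.0155, 0.0312 and 0.167 CPM in controls 1, 2 and 3, without overlap. Hhex, a homeobox factor of endothelium and early embryo, had 12.2, 13.1 and 17.0 CPM in AMH 1, 2 and 3 and 26.4, 30.1 and 16.9 CPM in controls 1, 2 and 3, where AMH 3 and control 3 were almost level. Erg, an ETS factor, had 2.76, 2.34 and 4.07 CPM in AMH 1, 2 and 3 and 5.24, 5.30 and 3.96 CPM in controls 1, 2 and 3.

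Markers of red cells and oviduct epithelium, and most of those of leukocytes, were higher in AMH libraries on average, as Cdh5 and Esam were, while stromal markers ran both ways. Over all tested genes, 26.9% lay above every control in each AMH library. Of 5 red cell markers 4 lay above every control in each AMH library, and the summed CPM of the list was 22.8 to 357 in AMH libraries and 1.11 to 5.64 in controls. Both that sum and Esam were highest in AMH 1. The order of AMH 2 and AMH 3 was opposite, at 29.9 and 22.8 CPM for the sum and 0.327 and 0.702 CPM for Esam. Of 10 leukocyte markers 6 lay above and 2, Ptprc (-0.66) and Laptm5 (-0.14), had a negative log2 fold change, with summed CPM of 86.9 to 147 in AMH libraries and 20.1 to 68.1 in controls. Of 8 oviduct epithelial markers 6 lay above, with summed CPM of 151 to 759 in AMH libraries and 25.5 to 175 in controls, which overlapped. Platelet markers, which bear on Pecam1 and Esam, summed to 0.732 to 5.16 CPM in AMH libraries and 0.234 to 0.698 CPM in controls, with Gp1bb at 0 counts in all libraries and Gp9 at 0 in controls. Stromal fibroblast markers had 2 positive and 3 negative log2 fold changes (median -0.47) and summed to 5.59 to 22.9 CPM in AMH libraries and 3.85 to 28.9 CPM in controls, highest in control 3. The part of these cells in the Cdh5 and Esam values was not tested, and near-identical haemoglobin copies make the red cell counts uncertain.

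The genes downstream of the receptors divided evenly. Of 23 VEGF receptor signalling genes, all were tested and 0 passed, and 11 had a positive and 12 a negative log2 fold change. In each AMH library 9 lay above and 9 below every control, against 26.9% and 23.3% of all tested genes. Fyn, a SRC-family kinase, had 307, 320.2 and 407 CPM in AMH 1, 2 and 3 and 567, 601 and 484 CPM in controls 1, 2 and 3. Gab1, a docking protein of receptor kinases, had 30.8, 28.3 and 20.3 CPM in AMH 1, 2 and 3 and 10.6, 7.56 and 17.6 CPM in controls 1, 2 and 3. Neither pair of groups overlapped, and both genes were named for having the smallest p on the list. Of 8 regulators of the hypoxia pathway that controls Vegfa, 4 had a positive and 4 a negative log2 fold change and 0 passed. Egln2, a prolyl hydroxylase of HIF, had 70.1, 56.7 and 39.6 CPM in AMH 1, 2 and 3 and 19.7, 12.7 and 32.6 CPM in controls 1, 2 and 3. Vhl, the ubiquitin ligase subunit that removes HIF, had 14.2, 12.2 and 11.7 CPM in AMH 1, 2 and 3 and 4.61, 1.90 and 8.34 CPM in controls 1, 2 and 3. Hif1a itself had 280, 327 and 371 CPM in AMH 1, 2 and 3 and 383, 372 and 387 CPM in controls 1, 2 and 3, with AMH 3 almost level with control 2.

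In the angiopoietin and Tie system, 5 of 6 genes were tested, 4 had a negative log2 fold change and 0 passed. Angpt2, the angiopoietin that modulates TIE2, had 1.54, 1.36 and 1.57 CPM in AMH 1, 2 and 3 and 2.16, 2.26 and 2.25 CPM in controls 1, 2 and 3, without overlap (log2 fold change -0.57, edgeR adjusted p = 0.157). Ptprb, the phosphatase that acts on TIE2 and VE-cadherin, had 12.7, 22.4 and 10.3 CPM in AMH 1, 2 and 3 and 26.9, 27.7 and 20.5 CPM in controls 1, 2 and 3, where AMH 2 lay above control 3.

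Patterns across the 6 libraries were compared by Pearson's r of log2 CPM with 9976 other protein-coding genes of at least 5 CPM, as a description over few points that share the group difference. The nearest to Flt1 were Hsf5, Lrrtm3 and Ccser2, each with r of at least 0.994. Hsf5, a heat shock factor family gene, had 20.6, 22.5 and 22.2 CPM in AMH 1, 2 and 3 and 39.5, 39.4 and 33.6 CPM in controls 1, 2 and 3, with AMH 3 as low as the other AMH libraries. The nearest to Pecam1 were Ints8, Gpr149 and Phf1, each with r of at least 0.999. Gpr149, a receptor gene known from mouse oocytes, had 36.4, 41.0 and 59.8 CPM in AMH 1, 2 and 3 and 77.4, 81.5 and 61.7 CPM in controls 1, 2 and 3, with AMH 3 beside control 3. The nearest to Vegfa were Map3k7, Osgin2 and Ahcyl1, each with r of at least 0.994. Osgin2 had 32.8, 31.9 and 13.6 CPM in AMH 1, 2 and 3 and 11.5, 3.97 and 33.6 CPM in controls 1, 2 and 3.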

How the data were processed

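Polyadenylated RNA of oocytes was sequenced in 3 AMH and 3 control libraries. The authors deposited whole-number counts per gene and FPKM values per gene; per the submitters' processing notes GRCm38 (mm10) was the build and DESeq2 1.20.0, featureCounts 1.5.0-p3 and HISAT2 2.0.5 the tools, whose roles, filters and strandedness were not given in the sources used here. Deposited FPKM values equal the count per gene length over an effective library size of 0.924 to 1.18 times the count total. The lowest chi-square per degree of freedom between 2 libraries was 55.9, for AMH 3 and control 3, so none was a duplicate.

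From the counts, edgeR 4.0.16 in R 4.3.3 (TMM, default filterByExpr, robust quasi-likelihood fit, group alone, Benjamini-Hochberg at 0.05) tested 18868 genes, and the fit was tested on simulated data. Standard errors come from the F statistic. DESeq2 1.42.0, limma 3.58.1 (voom, or log2(FPKM + 1) above 1 FPKM in at least 3 libraries), other scalings and filters, a replicate block and leaving out each library were alternatives. The members and gene lists were chosen with earlier results of these data known. Named genes were drawn from the members, the 2 of smallest p per list, markers near 0, and the 3 most alike to Flt1, Vegfa and Pecam1. All members are named, but not every gene of smallest p. Tie1, Erg, Selp, Cav1, Sox17, Plvap, Mmrn2, Vwf, Ptprc, Laptm5, Inha, Myh11, Hif1a, Tnfaip6, Ptgs2 and Pgf were named after their values were seen. So were Cd52, Krt8, Gdf9, H1foo, Figla and Oosp1.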

Additional observations from a re-analysis of the deposited data

How the results depend on the processing

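The number of genes past the test was 0 with edgeR and 4535 with DESeq2, and ranged from 0 to 7513 when each library was left out in turn. Without AMH 3 it was 1607 of 19638 tested (285 higher, 1322 lower) and without control 3 it was 7513 of 19770 (5291 higher, 2222 lower). Among the members, 0 of 9 tested passed with edgeR and 2 of 9 with DESeq2 (Flt1 and Esam). Without AMH 3 it was 3 of 10 (Flt1, Nrp1 and Pecam1) and without control 3 it was 5 of 9 (Flt1, Nrp2, Vegfa, Cdh5 and Esam). With any other library left out, 0 members passed. Nothing is read from these member counts. The cause was not tested. Scaling to the oocyte markers reversed Kdr (0.13), Nrp1 (0.23), Pecam1 (0.0608) and Tek (0.00821) on the log2 scale, with edgeR adjusted p of 0.828, 0.408, 0.813 and 0.991, because that scaling divides by genes that were lower in AMH libraries. Of 147 alternative values for members, 133 kept their direction and side of the threshold, 10 passed the threshold newly and 4 reversed. Over all alternatives Flt1 ran from -1.27 to -0.28. The replicate block gave 0 genes and 0 members past the test. Same-numbered libraries correlated at 0.0596, -0.103 and -0.250 in their deviations from the group means. Deviations from means of 3 libraries cannot show whether libraries were paired, and the labels do not state it. At 3 libraries a group, an exact permutation test of 1 gene cannot go below p = 0.1. Esam and Flt4 rest on few counts.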

Other observations

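Mural cell, lymphatic and semaphorin genes were also measured, as neighbours of vessel and neuropilin biology. Of 10 mural cell markers 7 were tested and 0 passed, 5 with a positive and 2 with a negative log2 fold change (median 1.07). Their summed CPM was 93.7, 126 and 70.4 in AMH 1, 2 and 3 and 187, 206 and 86.5 in controls 1, 2 and 3. Most of that sum was Myh11, smooth muscle myosin, at 70.2, 109 and 61.8 CPM in AMH 1, 2 and 3 and 183, 204 and 74.6 CPM in controls 1, 2 and 3. Acta2, smooth muscle actin, had 12.5, 3.19 and 0.931 CPM in AMH 1, 2 and 3 and 0.403, 0.561 and 0.971 CPM in controls 1, 2 and 3, so only AMH 1 and 2 stood above the controls. Lymphatic markers summed to 5.08 to 6.71 CPM in AMH libraries and 6.26 to 8.18 CPM in controls, which overlapped.

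Of 12 semaphorins and plexins, the ligands and receptors that share neuropilins with VEGF, 12 were tested, 9 had a positive and 3 a negative log2 fold change and 0 passed. Plxna3 had 18.7, 22.6 and 10.1 CPM in AMH 1, 2 and 3 and 2.06, 0.748 and 7.43 CPM in controls 1, 2 and 3. Plxna4 had 55.2, 65.7 and 107 CPM in AMH 1, 2 and 3 and 118, 135 and 117 CPM in controls 1, 2 and 3. Plxna3 and Plxna4 were the 2 of smallest p on this list, and both separated the groups without overlap, in opposite directions. Of the 12 genes 2 lay above and 1 below every control in each AMH library, against 26.9% and 23.3% of all tested genes.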
